A study of Mus musculus with 7 samples.

Results

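The genes described here are 10 regulators of cell cycle exit in mouse: the cyclin-dependent kinase (CDK) inhibitor genes Cdkn1a, Cdkn1b, Cdkn2a and Cdkn2c, the pocket protein genes Rb1, Rbl1 and Rbl2, and the D-type cyclin genes Ccnd1, Ccnd2 and Ccnd3. They were chosen by name, as the rows of the expression table that carry one of these symbols. The rule uses no measured value, but the names were picked with earlier results of these data known. Of the 10 genes, 8 had a row among the 11642 rows of the table, each under its own symbol alone. Cdkn2a and Ccnd2 had no row, so no level is given for them. All 8 genes with a row were among the 11086 genes tested.

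C2C12 cells, an established mouse myoblast line whose cells fuse into myotubes once serum is withdrawn, were depleted of lnc-SMaRT, a muscle-specific long noncoding RNA. All 4 RNA-Seq samples were C2C12 cells on day 2 after the switch to differentiation medium, of which 2 had received a scramble siRNA (si-SCR) and the other 2 the first of the study's siRNAs to lnc-SMaRT (si-SMaRT). In a separate experiment, RNA recovered with biotinylated antisense probes against lnc-SMaRT (set #1) or against LacZ, a bacterial gene absent from the cells, was sequenced in 1 library each. According to the study, the RNA-Seq was made on independent cell populations. The replicates therefore stand for separate cultures of a single line treated with a single siRNA sequence.

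A myoblast has to leave the cell cycle before it can fuse. D-type cyclins bind and activate the kinases CDK4 and CDK6, which phosphorylate the pocket proteins and so release E2F transcription factors from them, and E2F then drives the genes of S phase. CDK inhibitors of the Cip/Kip family (Cdkn1a, Cdkn1b) and of the INK4 family (Cdkn2a, Cdkn2c) hold these kinases back. In muscle, Cdkn1a and Rb1 are known to rise as cells differentiate, Ccnd1 is known to fall, and Ccnd3 is the D-type cyclin retained in myotubes.

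Levels are given as RPKM, reads scaled to gene length and library size, and can therefore be set side by side between genes. Fold changes are si-SMaRT minus si-SCR on the scale of log2(RPKM + 0.1), with a standard error (SE) from limma and p-values adjusted over all 11086 genes tested. At least 10956899 to 14280423 reads stood behind the values of a sample, since the reads recovered are lower limits for part of the rows. The targeted RNA was measured first. The row Lnc-SMaRT was at 19.1 and 15.9 RPKM in si-SCR 1 and 2 and at 2.88 and 3.65 RPKM in si-SMaRT 1 and 2, a log2 fold change of -2.39 ± 0.28 (SE, n = 2 per group; limma, adjusted p = 0.000882). The labels of the samples and the target therefore went the same way. The siRNA that set the groups apart had the following sequence in the sense of lnc-SMaRT, and it matched bases 878 to 898 of the 1409-base transcript of Gm14635 in GENCODE M21:

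si-SMaRT-1: gagaagcagaacaaacagaua

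Muscle identity was present in both groups: Myod1, Myog, Des, Myh3 and Ckm were all above 50 RPKM in every sample. Of 7 markers of other cell types, 6 had no row, and Cd68 lay between 0.788 and 1.13 RPKM in the 4 samples.

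Of the 8 genes, 1 passed the test, Ccnd1, which rose in si-SMaRT. Across all genes tested, 56 passed, which is 0.505%, and 20 rose, which is 0.18%. At an unadjusted p under 0.05 Rbl1 stood beside Ccnd1, where 9.09% of all genes tested lay under that limit. The 2 groups did not overlap for 6 of the 8 genes, with 5 higher and 1 lower in si-SMaRT, while the groups did not overlap for 40.7% of all genes tested, and for 20.2% with si-SMaRT higher. The median log2 fold change of the 8 genes was 0.14, beside 0.02 over all genes tested. It was 0.35 without si-SMaRT 1 and 0.06 without si-SMaRT 2. A fit without 1 si-SMaRT sample takes its spread from the 2 si-SCR samples alone, and the remaining si-SMaRT sample is assumed to vary like them.

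**Figure D1:**
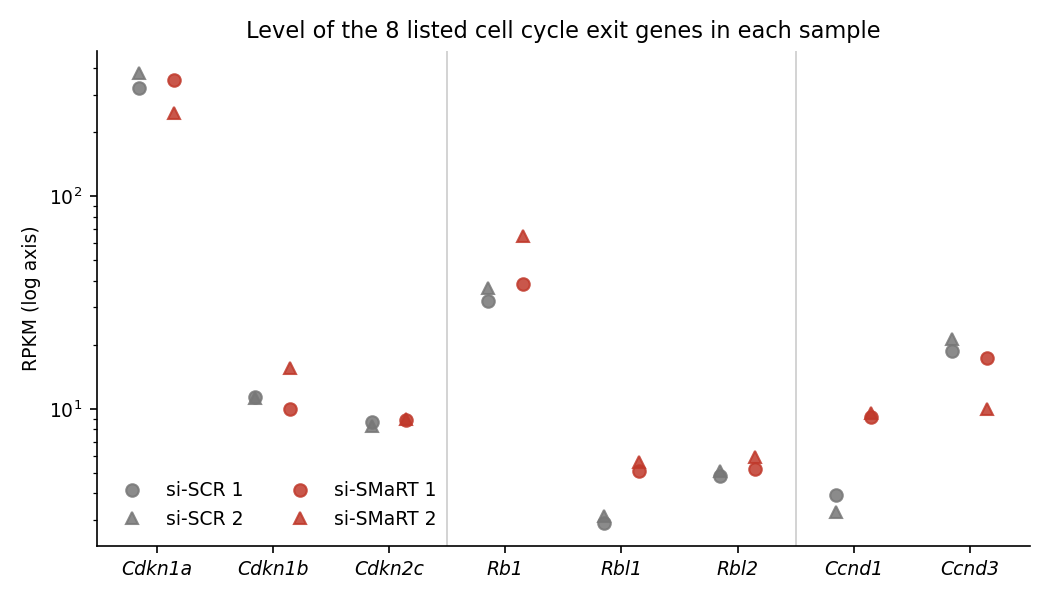
RPKM (log axis) of the 8 genes with a row in each of the 4 samples, with si-SCR in grey, si-SMaRT in red, replicate 1 as circles and replicate 2 as triangles; vertical lines part CDK inhibitors, pocket proteins and D-type cyclins. Cdkn1a lies above every other gene at 245 to 378 RPKM, and for Ccnd1 both si-SMaRT samples (9.17 and 9.60) lie above both si-SCR samples (3.96 and 3.27).

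Among the CDK inhibitors, Cdkn1a, which encodes p21 and binds cyclin-CDK complexes, had the highest level of the 8 genes in every sample. Its gene lies on chromosome 17 (GRCm38, 29090976 to 29100727, plus strand). Cdkn1a was at 321 and 378 RPKM in si-SCR 1 and 2 and at 353 and 245 RPKM in si-SMaRT 1 and 2. The lowest value was that of si-SMaRT 2, the value of si-SMaRT 1 lay between the 2 si-SCR samples, and the groups overlapped. The si-SCR mean of 350 ± 40.4 RPKM (SD, n = 2) was above that of 98.7% of the rows of the table. The log2 fold change of -0.24 ± 0.29 did not pass the test (adjusted p = 0.866), and its 95% interval ran from -0.85 to 0.36. Without si-SMaRT 2 the value was 0.019, so its sign rested on that sample.

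Cdkn1b, which encodes p27, the second Cip/Kip inhibitor measured, lies on chromosome 6 (GRCm38, 134920401 to 134925513, plus strand). It was at 11.4 and 11.3 RPKM in si-SCR 1 and 2 and at 9.96 and 15.6 RPKM in si-SMaRT 1 and 2. Here si-SMaRT 1 held the lowest value and si-SMaRT 2 the highest, on either side of both controls. Its log2 fold change was 0.14 ± 0.29 (adjusted p = 0.933; 95% interval -0.47 to 0.74), and without si-SMaRT 2 it was -0.19.

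Cdkn2c encodes p18, an INK4 inhibitor of CDK4 and CDK6, on chromosome 4 (GRCm38, 109660876 to 109667189, minus strand). Its levels were 8.65 and 8.32 RPKM in si-SCR 1 and 2 and 8.90 and 9.0 RPKM in si-SMaRT 1 and 2. The 4 samples spanned less than 1 RPKM, and although the groups did not overlap, the log2 fold change was 0.08 ± 0.27 (adjusted p = 0.963) with a 95% interval from -0.49 to 0.64. That interval, from 2 samples per group, holds changes of either sign.

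From the list of other CDK inhibitors, Cdkn2b had no row, and neither of the 2 tested genes passed. Cdkn1c, which encodes the Cip/Kip inhibitor p57, was at 213 and 280 RPKM in si-SCR 1 and 2 and at 208 and 183 RPKM in si-SMaRT 1 and 2, with a log2 fold change of -0.32 ± 0.28 (adjusted p = 0.806). Cdkn2d, which encodes the INK4 inhibitor p19, was at 13.4 and 11.2 RPKM against 8.29 and 6.49 RPKM, with a log2 fold change of -0.73 ± 0.28 (adjusted p = 0.353). For both genes each si-SMaRT sample lay below each si-SCR sample. Cdkn1a and Cdkn1c were thus the CDK inhibitor transcripts above 100 RPKM in all 4 samples.

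Among the pocket proteins, Rb1 was by far the most abundant transcript. It encodes the retinoblastoma protein and lies on chromosome 14 (GRCm38, 73183673 to 73325822, minus strand). Rb1 was at 32.2 and 36.9 RPKM in si-SCR 1 and 2 and at 38.5 and 65.1 RPKM in si-SMaRT 1 and 2. The si-SMaRT samples lay above the si-SCR samples, but si-SMaRT 1 exceeded si-SCR 2 by little and si-SMaRT 2 stood apart from the other 3 samples. The log2 fold change was 0.54 ± 0.29 (adjusted p = 0.609; 95% interval -0.08 to 1.15). It was 0.16 without si-SMaRT 2 and 0.92 without si-SMaRT 1, where the adjusted p was 0.000123 with a spread that came from the si-SCR samples alone.

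Rbl1 encodes p107, the pocket protein that is itself under E2F control in cycling cells. The gene lies on chromosome 2 (GRCm38, 157145893 to 157204534, minus strand). The 100 bases before its annotated start are shown because they hold letters of an E2F site, in capitals, on chr2:157204535-157204634 of GRCm38.p6 (minus strand, from RefSeq):

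Rbl1 before its start: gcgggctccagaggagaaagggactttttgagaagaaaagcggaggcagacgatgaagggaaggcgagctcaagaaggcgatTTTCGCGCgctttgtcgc

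The motif, searched as TTTCGCGC or TTTGGCGC on both strands, began 18 bases before the start. It was found in 267 of 32851 promoters of 250 bases before to 50 after a start, which is 0.813%. Promoters were at hand for 7 of the 10 genes, in 11 entries (Cdkn1a, Cdkn1b, Cdkn2a, Cdkn2c, Rbl1, Rbl2 and Ccnd3), and Rbl1 was the gene among them with this motif. Other motifs were also searched in these promoters, among them CANNTG (72.3% of all promoters) and TTTGAA (17.9%), and are not described here. The E2F match was thus picked from several searches. It is a description of the letters and no test of binding.

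Rbl1 was at 2.90 and 3.13 RPKM in si-SCR 1 and 2 and at 5.10 and 5.64 RPKM in si-SMaRT 1 and 2. Both si-SMaRT samples lay above both si-SCR samples, and the gap between the groups was wider than the spread inside either. On the level scale the si-SMaRT mean was 1.78 times the si-SCR mean. The log2 fold change of 0.81 ± 0.28 had an unadjusted p of 0.0104 and did not pass over all genes (limma, adjusted p = 0.30; 95% interval 0.22 to 1.41). Leaving out any 1 sample gave values from 0.74 to 0.88. Between 220 and 484 reads stood behind each value, a counting error of 4.55 to 6.74%. The adjusted p was 0.00284 without si-SMaRT 1 and 0.0357 without si-SMaRT 2, in fits where the lone si-SMaRT sample was assumed to vary like the si-SCR samples.

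Rbl2 encodes p130, the pocket protein that occupies E2F sites in resting cells, and lies on chromosome 8 (GRCm38, 91070057 to 91123844, plus strand). It was at 4.86 and 5.12 RPKM in si-SCR 1 and 2 and at 5.19 and 5.94 RPKM in si-SMaRT 1 and 2. The groups did not overlap, but si-SCR 2 and si-SMaRT 1 were nearly equal. Its log2 fold change was 0.15 ± 0.28 (adjusted p = 0.920; 95% interval -0.43 to 0.74).

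Rb1 made up 80.6% and 81.7% of the summed RPKM of the pocket protein genes in si-SCR 1 and 2 and 78.9% and 84.9% in si-SMaRT 1 and 2. The share of Rbl1 was 7.25% and 6.93% against 10.4% and 7.36%, and that of Rbl2 was 12.1% and 11.3% against 10.6% and 7.74%. The Rb1 shares overlapped between the groups, the Rbl1 shares were higher and the Rbl2 shares lower in both si-SMaRT samples. The mean Rbl1 share differed by 1.81 percentage points (two-sided exact permutation test, p = 0.333), and without si-SMaRT 1 by 0.264 points. With 2 samples against 2, 0.333 is the smallest p that the test can give. The ratio of Rbl1 to Rbl2, which does not depend on Rb1, was 0.597 and 0.611 in si-SCR 1 and 2 and 0.982 and 0.950 in si-SMaRT 1 and 2. In the deposited values, the samples of a group differed less in this ratio than in the level of any of the 3 genes. This did not hold for si-SMaRT after a trend with GC content was taken out of each sample. Rbl1 was then at 5.86 and 4.49 RPKM in si-SMaRT 1 and 2, and Rbl2 at 5.43 and 5.55 RPKM. In si-SCR 1 and 2, Rbl1 was at 2.91 and 3.41 RPKM and Rbl2 at 4.86 and 5.24 RPKM.

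Ccnd1 was the gene with the largest difference among the 8. It encodes cyclin D1, the D-type cyclin of proliferating myoblasts, and lies on chromosome 7 (GRCm38, 144929931 to 144939925, minus strand). Ccnd1 was at 3.96 and 3.27 RPKM in si-SCR 1 and 2 and at 9.17 and 9.60 RPKM in si-SMaRT 1 and 2. Every si-SMaRT sample was above every si-SCR sample, with means of 3.61 ± 0.488 and 9.38 ± 0.306 RPKM (SD, n = 2 per group). On the log2 scale the rise was 1.36 ± 0.28 (limma, adjusted p = 0.0356; 95% interval 0.78 to 1.94), and the mean level was 2.60 times as high. At least 177 to 527 reads stood behind each value, so that counting error was at most 4.36 to 7.52%.

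The size of the Ccnd1 rise changed little with the processing, but its call did. The log2 fold change lay between 1.18 and 1.49 over 15 alternatives, and the adjusted p was under 0.05 in 10 of them. These 10 include a crossed pairing of the samples as block, added after the data were seen. They also include the fits without si-SMaRT 1 or si-SMaRT 2, whose spread came from the si-SCR samples alone. Among the other 5 the adjusted p was 0.0531 with no filter on low values, 0.0619 after quantile normalization and 0.0591 with the replicate number as a block. It was also above 0.05 without si-SCR 1 and without si-SCR 2, where the spread came from the si-SMaRT samples alone.

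Ccnd3 encodes cyclin D3 and lies on chromosome 17 (GRCm38, 47505051 to 47599691, plus strand). It was at 18.7 and 21.2 RPKM in si-SCR 1 and 2 and at 17.3 and 9.96 RPKM in si-SMaRT 1 and 2. The groups did not overlap, with si-SMaRT 1 just under the controls and si-SMaRT 2 far under the other 3 samples. A log2 fold change of -0.60 ± 0.30 did not pass the test (adjusted p = 0.572; 95% interval -1.22 to 0.03). It was -0.20 without si-SMaRT 2 and -0.99 without si-SMaRT 1, where the adjusted p was 2.97e-05 with a spread that came from the si-SCR samples alone.

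**Figure D2:**
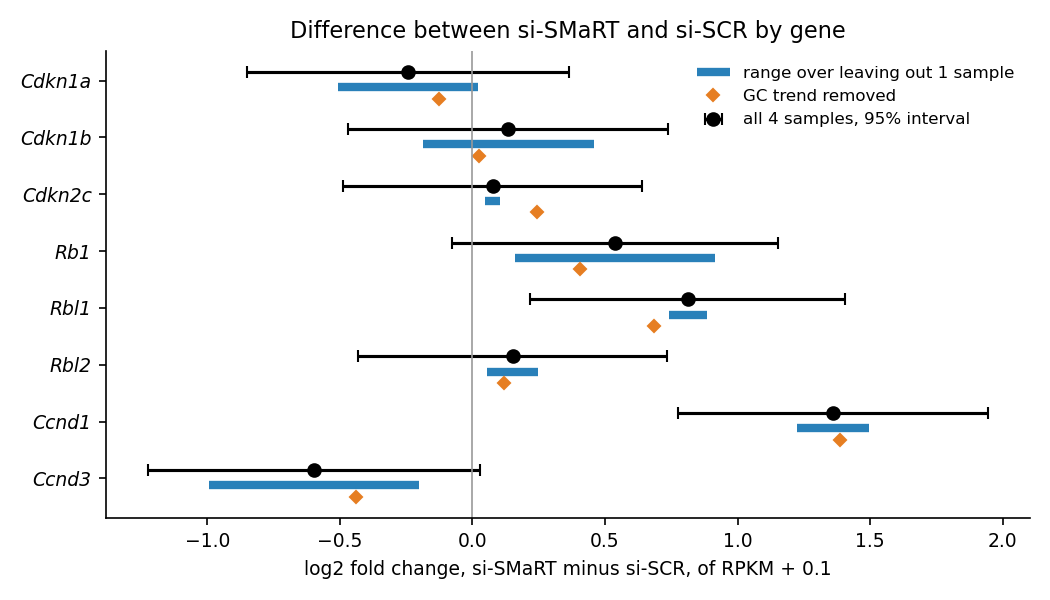
Log2 fold change (si-SMaRT minus si-SCR, of RPKM + 0.1) of each gene with its 95% interval from limma (black, n = 2 per group), the range over leaving out any 1 of the 4 samples (blue) and the value with the GC trend removed (orange). The intervals of Ccnd1 (0.78 to 1.94) and Rbl1 (0.22 to 1.41) lie above 0, the other 6 hold 0, and the blue ranges of Cdkn1a, Cdkn1b, Rb1 and Ccnd3 are the widest.

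Because Ccnd1 and Ccnd3 lay on opposite sides of 0, the make-up of the D-type cyclins differed between the groups. Ccnd1 held 17.5% and 13.3% of their summed RPKM in si-SCR 1 and 2 and 34.7% and 49.1% in si-SMaRT 1 and 2. Every si-SMaRT share was above every si-SCR share, and the means differed by 26.5 percentage points (two-sided exact permutation test, p = 0.333, the smallest it can give). Ccnd3 remained the larger part in all 4 samples, though in si-SMaRT 2 by 50.9% against 49.1%. With the GC trend removed, Ccnd3 was at 14.6 and 13.2 RPKM in si-SMaRT 1 and 2, and Ccnd1 at 8.80 and 10.2 RPKM. The summed RPKM of both genes was 22.6 and 24.5 in si-SCR 1 and 2 and 26.4 and 19.6 in si-SMaRT 1 and 2, so the totals of the groups overlapped. Ccnd2 had no row and is left out of these shares.

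**Figure D3:**
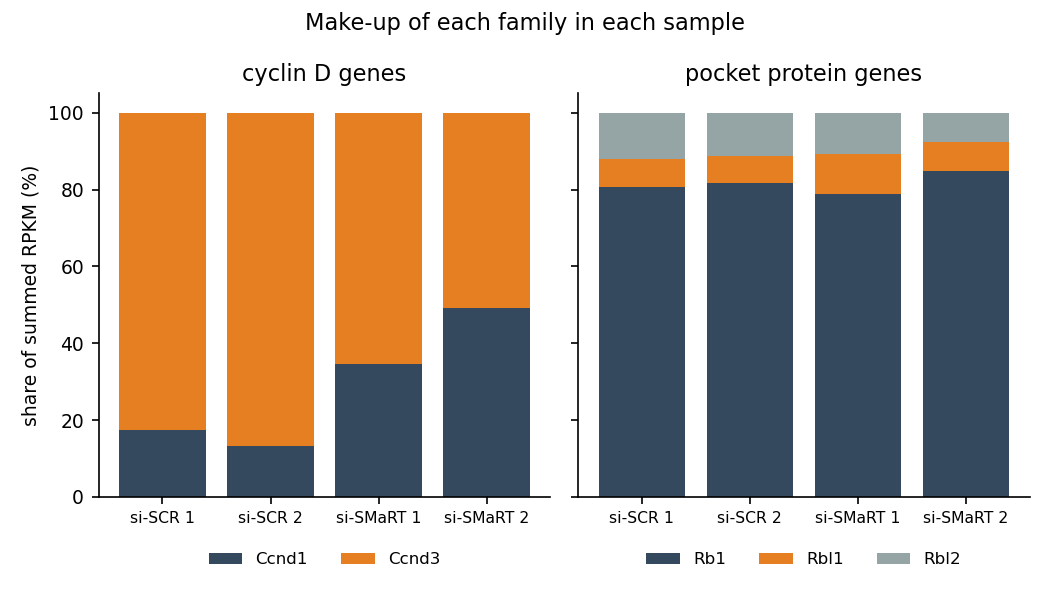
Share (%) of each gene in the summed RPKM of the D-type cyclin genes with a row (left) and of the pocket protein genes (right), in each of the 4 samples. The Ccnd1 part grows from 13.3 to 17.5% in si-SCR to 34.7 to 49.1% in si-SMaRT, while Rb1 stays between 78.9 and 84.9% in all samples.

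Set in order of their si-SCR means, the genes ran from Cdkn1a (350 RPKM) through Rb1 (34.6), Ccnd3 (20.0), Cdkn1b (11.3), Cdkn2c (8.49), Rbl2 (4.99) and Ccnd1 (3.61) to Rbl1 (3.01). No pair of neighbours in this order had overlapping samples in the deposited values. With the GC trend removed, Ccnd1 (3.98 and 3.19 RPKM) and Rbl1 (2.91 and 3.41 RPKM) overlapped in si-SCR 1 and 2. In the deposited si-SMaRT means, Ccnd1 (9.38 RPKM) stood above Cdkn2c (8.95) and Rbl2 (5.56) in the order. The samples of Ccnd3 overlapped those of Cdkn1b, as those of Rbl2 did those of Rbl1. With the GC trend removed, Ccnd1 (8.80 and 10.2 RPKM) and Cdkn2c (7.29 and 12.3 RPKM) overlapped in si-SMaRT 1 and 2. The ratio of Cdkn1a to Ccnd1 was 81.1 and 116 in si-SCR 1 and 2 and 38.5 and 25.5 in si-SMaRT 1 and 2. Of these ratios, both si-SMaRT values lay below both si-SCR values. The place of Ccnd1 among all rows of the table went from above 33.4% of them by its si-SCR mean to above 57.8% by its si-SMaRT mean.

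The 2 si-SMaRT samples differed from each other along with the GC content of genes, and this touched the genes unequally. Over 10948 genes, how far si-SMaRT 2 lay from si-SMaRT 1 followed GC content with a Spearman rank correlation of -0.846, and how far si-SCR 2 lay from si-SCR 1 with one of 0.379. These correlations are across genes within a pair of libraries. The log2 fold changes between the groups, si-SMaRT minus si-SCR, followed GC content across genes with a Spearman rank correlation of -0.293. Rb1 (41.2% GC) and Cdkn1b (43.1% GC) were higher in si-SMaRT 2 than in si-SMaRT 1, by 0.76 and 0.64 on the log2 scale. Cdkn1a (54.4% GC) and Ccnd3 (56.7% GC) were lower there, with differences of -0.53 and -0.79. Ccnd1 (50.9% GC) and Cdkn2c (58.0% GC) differed between the 2 si-SMaRT samples by 0.07 and 0.02, Rbl1 (42.1% GC) by 0.14 and Rbl2 (47.0% GC) by 0.19.

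After a loess trend with GC content was taken out of each sample, the si-SMaRT samples lay closer together for 5 of the 8 genes and farther apart for 3. For Cdkn1a, Cdkn1b, Rb1, Rbl2 and Ccnd3 the difference between them became -0.09, 0.18, 0.19, 0.03 and -0.14. For Cdkn2c, Rbl1 and Ccnd1 it became 0.75, -0.38 and 0.21. In that fit the log2 fold changes were 1.39 ± 0.16 for Ccnd1 (adjusted p = 0.00572), 0.69 ± 0.18 for Rbl1 (adjusted p = 0.0658), -0.44 ± 0.13 for Ccnd3 (adjusted p = 0.0856) and 0.40 ± 0.15 for Rb1 (adjusted p = 0.151). Ccnd1 was again the 1 gene of the 8 past the threshold, where 4.5% of 10948 genes passed. The part of GC content in these differences was not tested further.

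**Figure D4:**
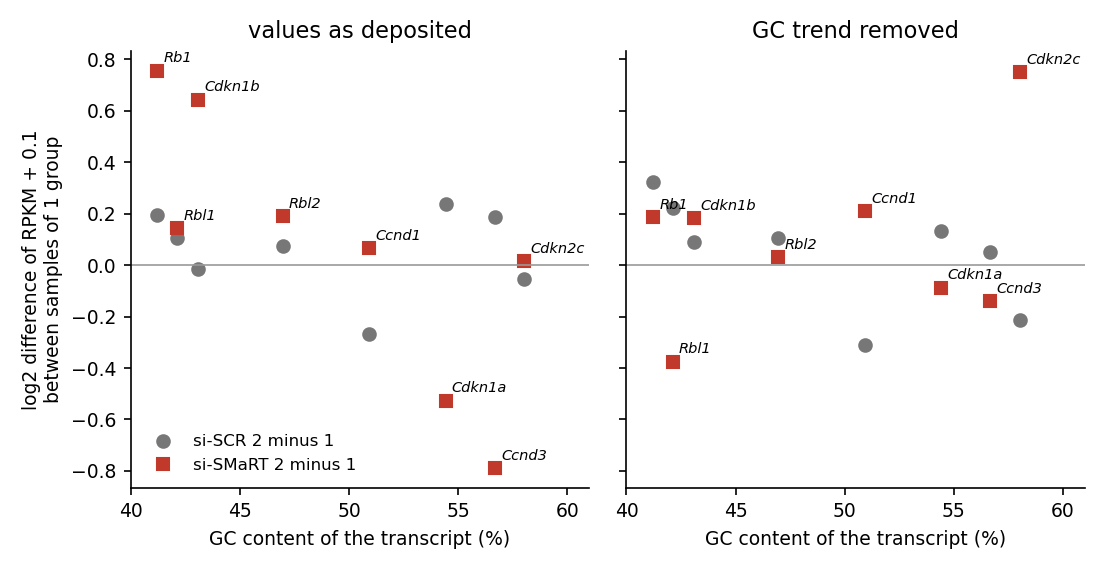
Log2 difference of RPKM + 0.1 between replicate 2 and replicate 1 of si-SCR (grey circles) and of si-SMaRT (red squares, named) for each of the 8 genes, against the GC content (%) of the gene's longest transcript, for the deposited values (left) and with the GC trend removed (right). On the left the si-SMaRT differences run from 0.76 for Rb1 to -0.79 for Ccnd3, while on the right Cdkn2c, at 0.75, is the farthest from 0.

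The genes that act with these regulators were read from lists chosen by role. Of the 10 kinases and later cyclins, 8 had a log2 fold change above 0, the median was 0.31 and none passed by limma (2 at an unadjusted p under 0.05; 0 by voom, and Ccne1 and Ccne2 with the GC trend removed). The median was 0.43 without si-SMaRT 1, 0.20 without si-SCR 2 and 0.12 without si-SMaRT 2. Ccne2, which encodes the cyclin E2 that activates CDK2 at the entry to S phase, had the highest value, 0.96 ± 0.33 (adjusted p = 0.302), from 8.16 and 6.46 RPKM in si-SCR 1 and 2 to 9.60 and 20.9 RPKM in si-SMaRT 1 and 2. The excess was mostly that of si-SMaRT 2. Cdk2 had the lowest, -0.22 ± 0.26 (adjusted p = 0.864), with 53 and 49.9 RPKM against 45.7 and 42.5 RPKM. Cdk4, a kinase partner of the D-type cyclins, was at 72.2 to 92.5 RPKM in the 4 samples with overlapping groups. It was named after its values were seen.

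Of the 10 E2F and DP factors, 7 lay above 0 with a median of 0.21, and none passed (1 at an unadjusted p under 0.05; 0 by voom, and E2f7 with the GC trend removed). That median was 0.12 without si-SCR 1 and 0.13 without si-SMaRT 1. E2f7, a repressor of the E2F family, was at 0.649 and 0.880 RPKM in si-SCR 1 and 2 and at 1.55 and 1.6 RPKM in si-SMaRT 1 and 2 (0.97 ± 0.33, adjusted p = 0.284). E2f5, a partner of p130, was lowest at -0.24 ± 0.32 (adjusted p = 0.882), with overlapping groups. Of 7 genes listed with the MuvB and DREAM complexes, not all of them subunits of DREAM, 6 lay above 0 with a median of 0.19. None passed (1 at an unadjusted p under 0.05, 0 by voom, and Mybl2 with the GC trend removed). Without si-SMaRT 2 the median was -0.10, while it was 0.33 both without si-SCR 1 and without si-SMaRT 1. With the GC trend removed it was 0.09, and the median of the E2F and DP factors was 0.30. Mybl2 had the highest value at 0.80 ± 0.35 (adjusted p = 0.490), and Lin37 the lowest at -0.50 ± 0.27 (adjusted p = 0.610).

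Of 14 E2F target genes of S phase, 13 had a log2 fold change above 0, the median was 0.39, and none passed by limma (4 at an unadjusted p under 0.05; 0 by voom, and Mcm4, Cdc6 and Cdt1 with the GC trend removed). For 9 of the 14 both si-SMaRT samples lay above both si-SCR samples, beside the 20.2% of all genes tested. Rrm1, which encodes the large subunit of ribonucleotide reductase, had the lowest log2 fold change of the list, -0.02 ± 0.27 (adjusted p = 0.990), with overlapping groups. The median of the list was 0.32 without si-SMaRT 1 and 0.50 without si-SMaRT 2.

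Further lists bear on how the members are controlled. Of 14 p53 target genes, the group to which Cdkn1a also belongs, 9 lay above 0 with a median of 0.18, and none passed (1 at an unadjusted p under 0.05; 0 by voom, and Zmat3 with the GC trend removed). Their median was 0.10 without si-SMaRT 2. Zmat3 had the highest value at 0.81 ± 0.30 (adjusted p = 0.342) and Bax, a driver of apoptosis, the lowest at -0.33 ± 0.28 (adjusted p = 0.806). Of 11 growth factor response genes, 6 lay above 0 with a median of 0.32, and none passed (3 at an unadjusted p under 0.05; 0 by voom, and Myc and Fosl1 with the GC trend removed). Their median rested on the si-SCR samples, at 0.06 without si-SCR 1 and 0.58 without si-SCR 2. Fosl1, a subunit of the transcription factor AP-1, had the highest value at 0.97 ± 0.33 (adjusted p = 0.286) and Ier3 the lowest at -0.24 ± 0.27 (adjusted p = 0.860). Of 11 genes of p27 and cyclin turnover, 7 lay above 0 with a median of 0.06, and none passed or had an unadjusted p under 0.05 (0 by voom). Leaving out 1 sample moved this median between -0.03 (without si-SCR 1) and 0.15 (without si-SMaRT 1). Their values ran from -0.29 ± 0.28 for Fbxw7, a ubiquitin ligase subunit (adjusted p = 0.833), to 0.46 ± 0.28 for Gsk3b, a kinase that marks cyclin D1 for degradation (adjusted p = 0.665).

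**Figure D5:**
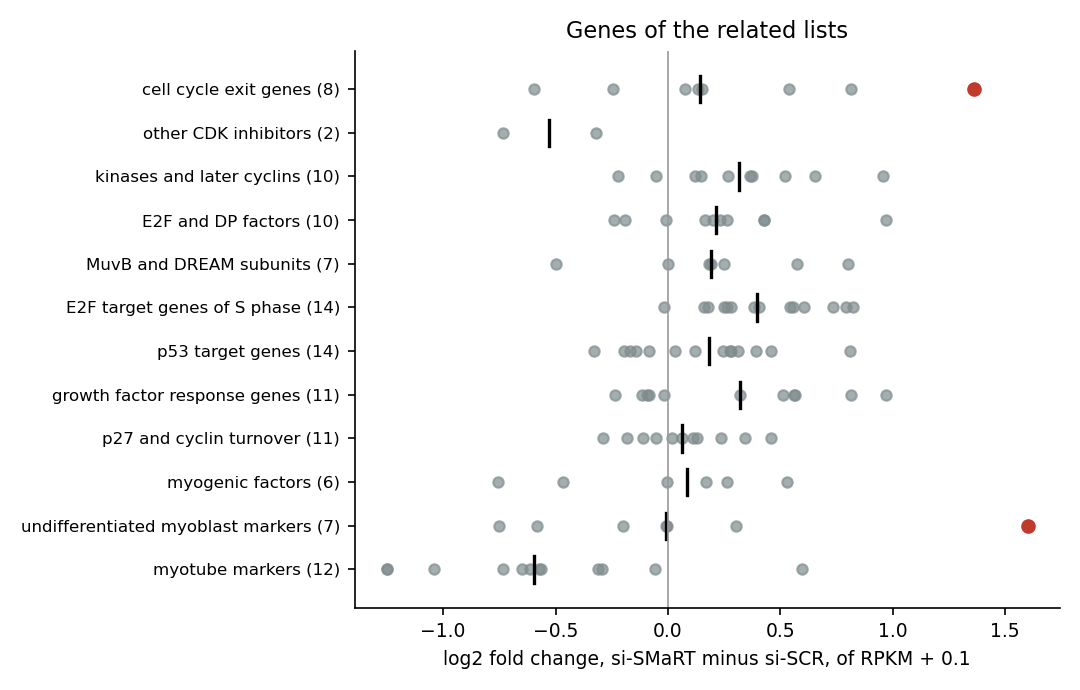
Log2 fold change (si-SMaRT minus si-SCR, of RPKM + 0.1) of each tested gene of 12 lists, with the number tested in brackets; red points passed the test at an adjusted p under 0.05, and black bars are medians. Ccnd1 and Id3 are the red points, and the medians run from -0.59 for myotube markers to 0.39 for E2F target genes of S phase.

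Markers of differentiation were read beside Ccnd1. Of 12 myotube markers, 11 had a log2 fold change below 0, with a median of -0.59, and none passed (4 lower and 1 higher at an unadjusted p under 0.05; Ckm and Tnnc2 passed by voom, and both with Myh8 after the GC trend was removed). The median was -0.20 without si-SMaRT 2, with 3 of the 12 above 0, and -0.92 without si-SMaRT 1. With the GC trend removed it was -0.45, with 2 of the 12 above 0. Their summed level was 10762 and 10916 RPKM in si-SCR 1 and 2 and 7410 and 4961 RPKM in si-SMaRT 1 and 2, and no marker was at 0. Ckm, the muscle creatine kinase, had the lowest value at -1.25 ± 0.32 (adjusted p = 0.106) and Myh8, a perinatal myosin, the highest at 0.60 ± 0.27 (adjusted p = 0.508). The summed level was lowest in si-SMaRT 2, where Cdkn1a and Ccnd3 were also lowest, whereas Ccnd1 was nearly equal in both si-SMaRT samples. With the GC trend removed, si-SMaRT 2 differed from si-SMaRT 1 by -0.09 for Cdkn1a, -0.14 for Ccnd3 and 0.21 for Ccnd1 on the log2 scale. The part of GC content in the summed level of the markers was not tested. In bulk RNA, fewer cells of a type and less RNA per cell cannot be told apart, and the part of a different share of unfused myoblasts in the level of Ccnd1 was not tested.

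Of 7 undifferentiated myoblast markers with a row (Pax7 had none), 1 passed, Id3, an inhibitor of MyoD-type transcription factors, which rose from 2.91 and 3.20 RPKM in si-SCR 1 and 2 to 12.3 and 7.26 RPKM in si-SMaRT 1 and 2 (1.6 ± 0.30, adjusted p = 0.0232). Without si-SCR 1 its adjusted p was 0.716 and without si-SCR 2 it was 0.345. Heyl, a target of Notch, had the lowest value, -0.75 ± 0.30 (adjusted p = 0.395), 5 of the 7 lay below 0, and the median of the list was -0.01, but -0.36 without si-SMaRT 2. The summed level of these markers overlapped between the groups, at 96.9 and 95.2 RPKM in si-SCR 1 and 2 and 86.7 and 103 RPKM in si-SMaRT 1 and 2. Of 6 myogenic factors with a row (Myf6 had none), 3 lay above 0, and none passed (1 at an unadjusted p under 0.05; 0 by voom, and Mef2c with the GC trend removed). Mef2a was highest at 0.53 ± 0.28 (adjusted p = 0.604) and Mef2c lowest at -0.76 ± 0.29 (adjusted p = 0.359). Myf5 stood in both lists.

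The genes whose pattern over the 4 samples was most like that of Ccnd1 were F3, Grem1 and Slc19a2, with root mean square differences of 0.06, 0.08 and 0.09 on the log2 scale after each gene was centred on its mean. F3, which encodes tissue factor, was at 5.01 and 4.34 RPKM in si-SCR 1 and 2 and at 11.3 and 11.2 RPKM in si-SMaRT 1 and 2. Grem1, which encodes a secreted antagonist of bone morphogenetic proteins, was at 2.04 and 1.77 RPKM against 4.44 and 5.39 RPKM. Slc19a2, which encodes a thiamine transporter, was at 2.97 and 2.84 RPKM against 6.74 and 7.5 RPKM. As they were picked for a pattern that sets the groups apart, no test is given for them.

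Lastly, the pull-down lists were searched for peaks on the exons of the 10 genes. The lnc-SMaRT list held 345 peaks and the LacZ list 336. A single peak, in the lnc-SMaRT list, lay on any of the 10 genes, and it lay on Cdkn1a. It spanned chr17:29100601-29100800 of GRCm38 on the plus strand, with a p-value of 0.00363 from the authors' peak caller. Of the 200 bases of the peak, 127 lay in the last exon of Cdkn1a, in its 3′ UTR, and 73 beyond the annotated end of the gene. The last 30 bases of the gene inside the peak (chr17:29100698-29100727, GRCm38, plus strand) are shown with the polyadenylation signal in capitals:

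Cdkn1a 3′ end: gctcAATAAAtacttctcgatgatttataa

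The LacZ list had 15 peaks on chromosome 17 and none on Cdkn1a. In the lnc-SMaRT list 262 peaks had a lower p-value, and at a limit of 0.001 no peak on Cdkn1a was left. The longest stretch of the peak complementary to a probe of set #1 was 7 bases, which is also the median over the 257 peaks of the same length, and 59.5% of these had a stretch at least as long. Cdkn1a, at 245 to 378 RPKM, was above 98.7% of the rows of the RNA-Seq table by its si-SCR mean, and the part of abundance in the presence of a peak was not tested. With 1 library for each probe set there is no replicate check and no test, and nothing on the enrichment of Cdkn1a RNA over LacZ follows from the lists. No peak of either list lay on Ccnd1 or Rbl1.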

How the data were processed

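RNA-Seq and pull-down libraries of C2C12 cells were used as deposited. The authors removed rRNA and tRNA reads (Bowtie2), aligned to GRCm38 (TopHat2), counted genes with HTSeq, left out genes of low CPM, scaled by TMM and deposited 1 RPKM value per gene and sample. By the recovered reads, 11634 of 11642 rows had a CPM of at least 1 in 2 or more samples. The p-value of each deposited peak is the authors' own, from Piranha in bins of 200 bases. By the study's methods, LacZ peaks were called against input, and lnc-SMaRT peaks once against input and once against LacZ. The lnc-SMaRT list does not state which of these calls it holds. The study took a transcript as bound if its exons overlapped peaks of both lnc-SMaRT calls and no LacZ peak. The input library was not analysed here.

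The test was limma 3.58.1 (R 4.3.3, lmFit and a trended eBayes) on log2(RPKM + 0.1), for rows whose mean RPKM reached 0.5. Benjamini-Hochberg adjustment ran across all of these rows, with a threshold of 0.05. The test was first run on simulated reads that held no GC trend, so that run cannot show how such a trend affects it. A gene's RPKM steps by the worth of 1 read (tolerance 2e-05 reads), from which reads were recovered for 11642 of 11642 rows. For 6479 rows the gene model fixed their scale, and elsewhere, as for Cdkn1a, Rb1, Rbl2 and Ccnd1, they are lower limits. Counting errors cover counting only. voom on these reads was run as an alternative. GC content came from the longest GENCODE M21 transcript for 98.5% of rows, and a loess trend (span 0.3) was removed as another alternative. Other pseudocounts, filters, quantile normalization, a replicate block and each sample left out were also tried. Motifs and peaks were matched in Python 3.11.15 with pandas 2.3.3, and exact tests used scipy 1.17.1.

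The members and lists were chosen with earlier results of these data known. Named were the 10 genes, lnc-SMaRT, every gene of a list past the threshold and, where fewer than 2 passed, its highest and lowest log2 fold change, and the 3 genes most like Ccnd1. A withheld gene is not reported here.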

Additional observations from a re-analysis of the deposited data

How the results depend on the processing

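The count of 56 genes past the threshold was 37 after quantile normalization, 106 by voom on recovered reads and 493 with the GC trend removed, and from 24 (without si-SCR 1) to 2908 (without si-SMaRT 1) when 1 sample was left out; the cause was not tested. Same-numbered samples deviated from their group means with a correlation of -0.362, and of -0.163 with the GC trend removed. Differences inside si-SCR and inside si-SMaRT followed GC content in opposite directions. The correlation therefore cannot tell whether the numbers pair the samples. With the replicate number as a block the count was 96, and with the GC trend removed and the replicate block 368. A crossed pairing as block, added after seeing the data, gave 487. Over the 8 genes with a row, 107 of their values under alternatives kept direction and side of the threshold, 5 moved past it, 5 no longer passed and 2 changed sign. Leaving out 1 sample gave log2 fold changes from -0.51 to 0.019 for Cdkn1a, from -0.19 to 0.46 for Cdkn1b, from -0.16 to 0.31 for Cd68, from -0.68 to 0.20 for E2f5 and from -0.17 to 0.13 for Rrm1, which was 0.047 after quantile normalization. Differences of the Ccnd1 share lay between 19.3 and 33.7 percentage points and those of the Rbl1 share between 0.264 and 3.35 when 1 sample was left out. With a p limit of 0.001 the peaks on Cdkn1a were 0. With 2 samples per group, the 95% intervals of 6 of the 8 genes held 0.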
